A study of Homo sapiens with 8 samples.

Results

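The RNA of Hep3B cells, a line derived from hepatocellular carcinoma (HCC), was compared with that of 3 lines from other organs, as measured in input libraries, the libraries made without immunoprecipitation. The study also pulled down RNA with an antibody against RPS6, which belongs to the small subunit of the ribosome, by RNA immunoprecipitation (RIP), and sequenced a RIP and an input library for each line. The other lines were HCT116 (colorectal cancer), DU145 (prostate cancer), and SW1990 (pancreatic cancer). The labels name no treatment, genotype, or time for any of them. Of the 8 libraries, the 4 inputs are compared here, and the 4 RIP libraries serve as a second look at each gene. Genes with at least 1 FPKM (fragments mapped to a gene, divided by its length in kilobases and by the depth of the library in units of 1000000 fragments) in any input were kept, which gave 20367 of the 57756 listed genes, among them 13534 that RefSeq lists as protein coding. In the Hep3B input 15832 genes reached 1 FPKM, against 14762 in HCT116, 15943 in DU145, and 15509 in SW1990, and 11700 reached it in all 4. At the minimum, SLC23A3 was kept with a highest input value of 1.0005 FPKM, and TMOD4 was left out with 0.999915 FPKM.

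Each line had 1 library per fraction, so there was no replicate, and no p-value is given for any difference. A gene was called higher when log2(FPKM + 1) in the Hep3B input was at least 2 (4-fold) above the highest of the 3 other inputs, and lower when it was at least 2 below the lowest of them. This scale understates the difference of a gene whose level is near 0 in some line. The values of Hep3B and HCT116 stand in 1 deposited table and those of DU145 and SW1990 in another. The labels do not say whether these were made or scaled together, so levels set across the lines rest on the scaling as deposited. The inputs held between 33379160 and 36534395 estimated counts and the RIP libraries between 42065688 and 46563501. Below, values of the other lines are given in the order HCT116, DU145, SW1990.

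The labels of the liver cancer libraries differ among themselves. Their titles and the study's methods name Hep3B, while their cell line field names Huh7, another HCC line, and they are called Hep3B here. Of the other inputs, DU145 was at 0 for the prostate genes KLK2 and KLK3. The intestinal list summed to 10.9 FPKM in the library labelled HCT116 and to 401 FPKM in the library labelled SW1990, with CDX2, an intestinal transcription factor, at 6.25 and 86.6 FPKM. The duct keratin gene KRT7 was at 16.2 FPKM in the library labelled HCT116 and at 3.17 FPKM in the library labelled SW1990. What lies behind these levels was not tested, the lines are named by their labels, and the counts of calls are given below also without each library.

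Hepatocytes make most of the carrier, coagulation, and complement proteins of blood plasma and assemble the lipoproteins that carry lipids from the liver. Their genes are switched on by a set of transcription factors that includes HNF4A, FOXA2, and CEBPA. Fetal liver expresses AFP, IGF2, H19, and GPC3. Of these, AFP, H19, and GPC3 fall silent or low in adult liver and often return in HCC.

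The promoters of 3 liver genes and of a gene that was low in Hep3B are shown for the letters they share or lack. Each is the 250 bases before the RefSeq gene start (GRCh38.p14), 5′ to 3′ on the strand of the gene. Capitals mark matches, on either strand, to GTTAAT (a motif of liver promoters), CAAAGT (the core of HNF4 sites, also part of the longer CAAAGTCCA), TTNNGNAA (C/EBP factors), and TATAAA (the TATA box). ALB lies at chr4:73404037-73404286 (plus strand), AFP at chr4:73435971-73436220 (plus strand), FGB, the fibrinogen beta chain, at chr4:154562730-154562979 (plus strand), and GSTP1, a glutathione transferase, at chr11:67583562-67583811 (plus strand).
ALB: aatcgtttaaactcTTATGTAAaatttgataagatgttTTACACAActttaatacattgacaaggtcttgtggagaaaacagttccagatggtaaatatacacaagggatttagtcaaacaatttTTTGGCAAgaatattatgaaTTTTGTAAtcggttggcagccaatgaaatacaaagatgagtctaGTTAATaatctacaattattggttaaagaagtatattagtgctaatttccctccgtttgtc
AFP: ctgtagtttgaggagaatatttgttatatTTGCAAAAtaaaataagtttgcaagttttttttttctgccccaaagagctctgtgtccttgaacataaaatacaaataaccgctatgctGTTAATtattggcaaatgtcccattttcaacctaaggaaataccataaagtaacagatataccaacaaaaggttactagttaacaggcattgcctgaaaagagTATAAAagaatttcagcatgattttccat
FGB: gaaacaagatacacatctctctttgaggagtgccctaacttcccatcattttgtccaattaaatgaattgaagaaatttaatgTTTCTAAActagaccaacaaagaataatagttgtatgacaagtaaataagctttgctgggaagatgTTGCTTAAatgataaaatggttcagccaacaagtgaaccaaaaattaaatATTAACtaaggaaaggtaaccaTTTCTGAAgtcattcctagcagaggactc
GSTP1: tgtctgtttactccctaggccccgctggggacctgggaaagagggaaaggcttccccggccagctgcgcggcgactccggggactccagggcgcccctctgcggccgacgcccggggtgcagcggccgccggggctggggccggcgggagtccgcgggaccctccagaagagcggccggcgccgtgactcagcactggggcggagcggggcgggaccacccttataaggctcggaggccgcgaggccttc
GTTAAT lies once in each of the 3 liver promoters, at bases -61 to -56 of ALB, -132 to -127 of AFP, and -51 to -46 of FGB, counted from the gene start. TTNNGNAA lies in all 3 as well, at 4 places in ALB, 1 in AFP, and 3 in FGB, and only AFP of the printed promoters holds TATAAA, at bases -29 to -24. GSTP1 holds none of these letters in this window, and CAAAGT lies in none of the 4 promoters. These promoters are examples. As counted below, GTTAAT was in 23.8% of the promoters of listed liver genes called higher and in 6.22% of all promoters.

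The 4 genes taken as markers of hepatocytes, ALB, AFP, APOB, and TTR, were called higher in the Hep3B input and in its RIP library. ALB, the carrier protein albumin, was at 5030.1 FPKM in the Hep3B input and at 0.291, 0.0571, and 0.938 FPKM in the others. AFP, the fetal counterpart of albumin, was at 291 FPKM in Hep3B and at 0 in the other 3 inputs. Against a floor of 3 counts in the least deep of those libraries, AFP was at least 5714-fold higher as a share of all estimated counts. APOB, the scaffold protein of very low density lipoprotein, was at 306 FPKM against 0.0201, 0, and 0.00787 FPKM. TTR, which carries thyroid hormone and retinol-binding protein, was at 120 FPKM against 0, 0.0800, and 0 FPKM. For all 4 genes the Hep3B value stood alone above a group of 3 values under 1 FPKM. In bulk RNA, more cells with a transcript and more RNA per cell cannot be told apart. By FPKM, APOA2 ranked 1, ALB 3, IGF2 12, and GC 33 among the 13534 protein-coding genes in the Hep3B input.

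Over all genes, 697 (3.42%) were called higher and 276 (1.36%) lower in the Hep3B input. The plot of calls by line shows both counts above those of the other lines, with FPKM as deposited. The other lines were not counted on the other scales given below. With another line in the place of Hep3B, the same rule called 228 genes higher and 116 lower for HCT116, 424 and 65 for DU145, and 306 and 113 for SW1990. Among protein-coding genes, 483 were higher and 225 lower in Hep3B, against at most 180 higher and 85 lower in any other line. Leaving a library out can only add calls, and without HCT116 the counts were 815 higher and 426 lower, without DU145 1009 and 491, and without SW1990 848 and 469. Against DU145 alone, which leaves out both libraries with the intestinal levels above, they were 1158 and 1363.

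**Figure D1:**
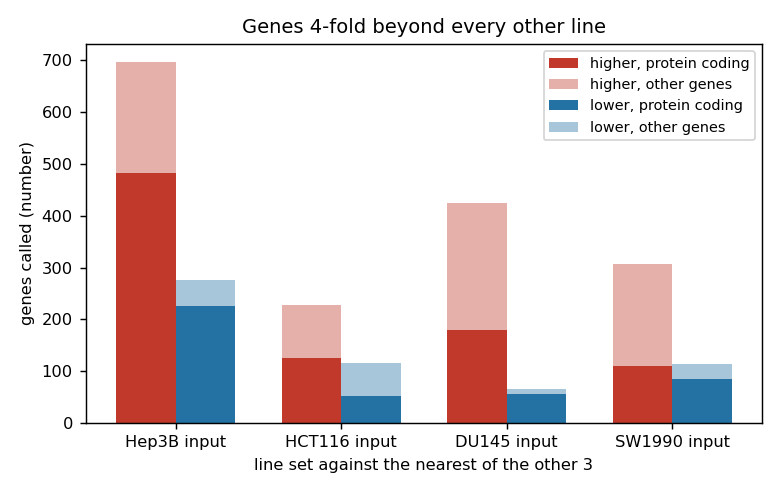
Number of genes (vertical axis) 4-fold above or below every other input, for each line in turn, with protein-coding genes as the dark part of each bar and all other genes as the pale part. With FPKM as deposited, Hep3B has 697 genes called higher and 276 called lower, more than any of the 3 other lines in either direction.

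The balance of these calls depended on which scale between libraries was used. The Hep3B FPKM values summed to 1659968, against 884796 to 981929 in the other inputs, and 5 short RNAs (RN7SK, RMRP, RN7SL1, RN7SL2, and RPPH1) took 12.4% of its estimated counts (95% Wilson interval 12.395 to 12.416, which covers counting error only) against 4.24%, 3.09%, and 0.520%. Over 7788 genes with at least 5 FPKM in all 4 inputs, the median gene was lower in Hep3B by 0.05, 0.15, and 0.25 on the log2 scale. With median-of-ratios size factors, which bring these medians to 0.01 or less, 763 genes were called higher and 248 lower. On that scale 75.5% of calls were higher, beside 71.6% with FPKM as deposited. Scaled to a sum of 1000000 FPKM in each library, which puts the median gene of Hep3B lower by 0.81, 1.04, and 1.16, the counts turned to 414 higher and 590 lower, so that the share of calls that were higher went from 71.6% to 41.2%. The 15 highest and the 15 lowest genes named below were called in the same direction under all 3 scales.

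Of 241 symbols in 11 lists of liver genes, 239 were found in the tables, and 94 of these (39.3%) were called higher and 1 (0.418%) lower, beside 1.21% and 0.478% of all 57756 listed genes. The median difference between Hep3B and the mean of the other inputs was 1.54 on the log2(FPKM + 1) scale over the 239 genes and 0 over all listed genes. Of all listed genes, 37389 were under 1 FPKM in every input. Such genes cannot be called, so they hold the share and the median over all listed genes near 0. The lists were chosen with earlier results of these data known. Of the 239, 91 reached 1 FPKM in Hep3B only, 66 in Hep3B and another line, 10 only in other lines, and 72 in no input. The counts by list below are over the 167 that reached it in some input. As 91 of the 167 reached it through Hep3B alone, these counts are a description of the lists and are not set against the share over all genes. With HCT116, DU145, or SW1990 in the place of Hep3B, the rule called 1, 3, and 4 of the 239 higher. The lists took 5.77% of the estimated counts of the Hep3B input and 0.146%, 0.266%, and 0.428% of those of the others. At least 100 FPKM was reached by 34 list members in Hep3B and by 1, 4, and 3 in the other lines. The plot of differences by list shows that the points right of the 4-fold line belong mostly to these 11 lists.

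**Figure D2:**
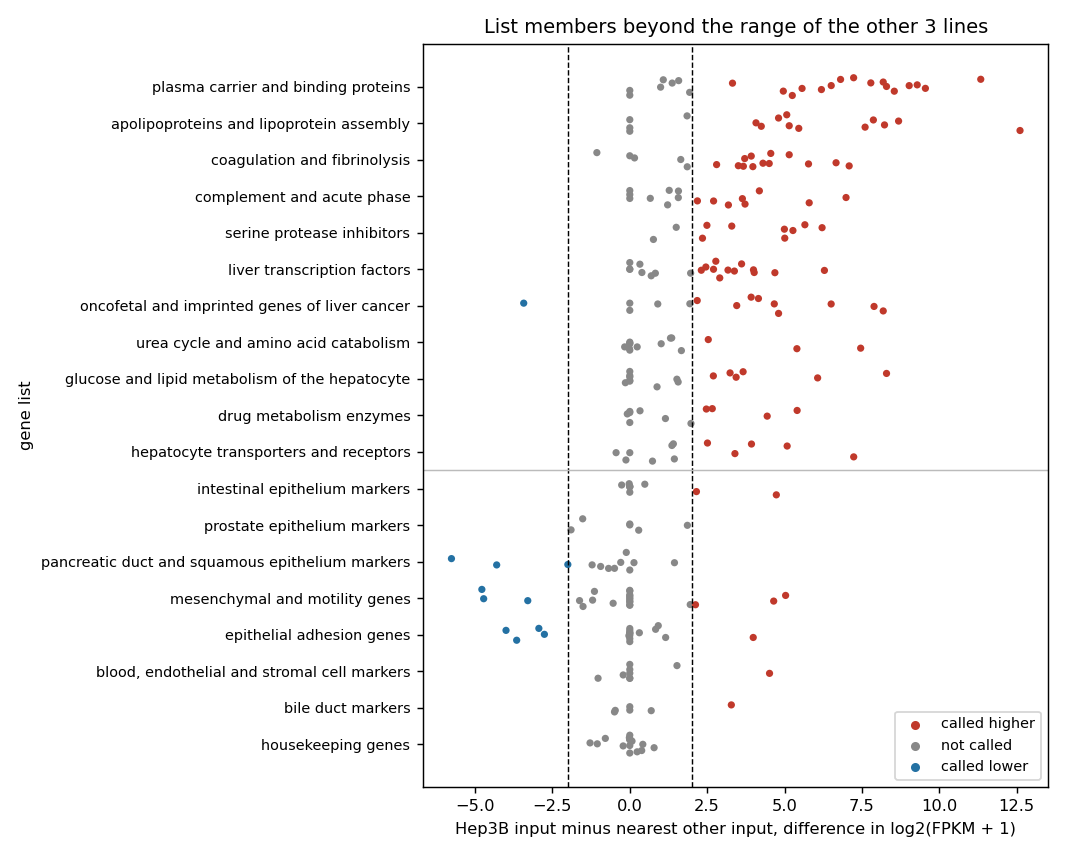
Difference in log2(FPKM + 1) between the Hep3B input and the nearest of the 3 other inputs (horizontal axis, 0 where Hep3B lies within their range) for each member of 19 gene lists (vertical axis), 1 point per gene, with dashed lines at the 4-fold rule. In the 11 liver lists above the grey line, 94 of 167 members lie to the right of the rule, and the 16 housekeeping genes all lie between the dashed lines.

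Among plasma carrier and binding proteins, 16 of 23 measured members were called higher. GC, the vitamin D binding protein, was at 981 FPKM in Hep3B against 0.308, 0, and 0 FPKM. AHSG, a plasma glycoprotein also called fetuin A, was at 665 FPKM against 0.0645, 0.0109, and 0.0470 FPKM. TF, the iron carrier transferrin, was at 611 FPKM against 0.172, 0, and 0.0634 FPKM. These genes lay above the nearest line by 9.55, 9.29, and 9.03 on the log2(FPKM + 1) scale. AMBP, the precursor of alpha-1-microglobulin and bikunin, was at 435 FPKM and RBP4, which carries retinol, at 431 FPKM, with 0.376 FPKM or less in every other input. Further members called higher ranged from CP, the copper protein ceruloplasmin, at 32.6 FPKM against 1.36, 2.37, and 2.14 FPKM, to ITIH2, an inter-alpha-trypsin inhibitor chain, at 226 FPKM against 0.0276 FPKM at most. Some plasma carriers were near 0. HP, the hemoglobin binder haptoglobin, was at 1.21 FPKM in Hep3B, and HRG and ITIH3 were under 0.2 FPKM. IGFBP4 was at 0.980 FPKM in Hep3B, within the range of the others at 0.0177, 36.6, and 20.6 FPKM.

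Of 15 measured apolipoproteins and proteins of lipoprotein assembly, 11 were called higher. APOA2, an apolipoprotein of high density lipoprotein, had the largest distance of any named gene, with 9040.8 FPKM in Hep3B against 0.445, 0, and 0.0477 FPKM, a difference of 12.61 on the log2(FPKM + 1) scale from the nearest line. APOE was at 536 FPKM against 0.479, 1.76, and 0.623 FPKM, and APOH at 440 FPKM against 0.0709, 0, and 0 FPKM. APOA1, the main protein of high density lipoprotein, was at 250 FPKM against 0.0713, 0.0419, and 0 FPKM. APOC1 was the member of the group with the highest levels outside Hep3B, at 345 FPKM against 1.95, 18.0, and 19.5 FPKM. APOC3, an inhibitor of lipoprotein lipase, was at 32.7 FPKM and at 0 in the other inputs, at least 133-fold above the floor. MTTP, which loads lipid onto APOB, was at 20.2 FPKM, and LIPC, the hepatic lipase, at 29.3 FPKM, with all other values at 0.115 FPKM or less. LCAT and PLTP lay within the range of the other lines, and APOA4, APOA5, and LPA were under 0.1 FPKM in Hep3B.

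The coagulation list had 13 of 18 measured members called higher. The 3 fibrinogen chains FGA, FGB, and FGG were at 55.2, 75.0, and 143 FPKM in Hep3B, and the highest value of any chain in another input was 1.14 FPKM, for FGB in DU145. F2 (prothrombin) was at 19.4 FPKM, F5 at 10.7, F7 at 12.5, and F10 at 10.0 FPKM, each with 0.577 FPKM or less elsewhere. F9 was at 0 in all 4 inputs, and SERPINC1 (antithrombin) and PLG (plasminogen) were under 0.4 FPKM in each. F12 went the other way, at 1.19 FPKM in Hep3B against 13.6, 3.57, and 13.1 FPKM, short of the rule. Among serine protease inhibitors, 8 of 10 were higher. SERPINA1, the inhibitor of neutrophil elastase, was at 539 FPKM against 0.491, 15.8, and 0.873 FPKM, and SERPINF1 was at 182 FPKM against 0.815, 1.23, and 1.46 FPKM.

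Of 16 measured complement and acute phase genes, 8 were called higher. C3, the central complement component, was at 218 FPKM against 0.726, 0.127, and 0.118 FPKM, and CFI, the protease that inactivates it, at 70.6 FPKM against 0.0166, 0.287, and 0.0223 FPKM. C6 was at 5.53 FPKM and at 0 in the others, at least 205-fold above the floor. The classic acute phase genes CRP, SAA1, SAA2, and HAMP were under 0.3 FPKM in Hep3B, and C9 and MBL2 under 1 FPKM. C4BPB was shared with SW1990, at 28.9 FPKM in Hep3B and 44.2 FPKM in SW1990, while its partner C4BPA was at 17.5 FPKM in Hep3B and at 0.0150 FPKM or less elsewhere.

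The transcription factors of the hepatocyte were called higher in 12 of 20 cases. PROX1 was at 97.7 FPKM against 0, 0.0223, and 0.261 FPKM, the largest distance of the list. HNF4A, a nuclear receptor, was at 53.2 FPKM against 0.915, 0, and 6.23 FPKM. FOXA2 was at 15.9 FPKM against 0.0646, 0.363, and 2.41 FPKM, and CEBPA at 18.1 FPKM against 0.745, 0.941, and 1.77 FPKM. NR5A2, NR1H4, and NR0B2, nuclear receptors that act on bile acid synthesis, were at 50.2, 9.52, and 18.2 FPKM, with at most 2.21 FPKM elsewhere. Some factors of the list were also expressed in the other lines. FOXA1 was at 65.2 FPKM against 1.71, 51.8, and 30.9 FPKM, and GATA6 at 4.40 FPKM against 2.09, 0.830, and 16.6 FPKM. NR1I2, a receptor that induces drug metabolism, was at 0 in all 4 inputs. With FPKM scaled to 1000000, 8 of the 20 factors were called higher in place of 12.

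Oncofetal and imprinted genes of liver cancer were higher in 9 of 14 cases and lower in 1. IGF2, a fetal growth factor, was at 1456 FPKM in Hep3B against 5.12, 0.0657, and 3.24 FPKM. H19, the noncoding RNA transcribed next to IGF2, was at 5496 FPKM in Hep3B and also high in SW1990, at 1213 FPKM, against 3.37 and 1.52 FPKM in HCT116 and DU145. GPC3, a membrane proteoglycan, was at 125 FPKM against 0.380, 0, and 0.270 FPKM. DLK1 was at 14.2 FPKM and at 0 in the others, at least 239-fold above the floor. The RNA-binding proteins IGF2BP1 and LIN28B were at 49.2 and 27.2 FPKM, with at most 0.792 FPKM elsewhere, while IGF2BP3, at 75.0 FPKM, was less than 4-fold above HCT116 at 39.6 FPKM. The adhesion protein gene EPCAM, at 370 FPKM, lay below SW1990 at 402 FPKM. GOLM1, a Golgi protein gene, was the only liver-list member called lower, at 1.65 FPKM against 27.6, 121, and 79.0 FPKM.

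The metabolic lists of the hepatocyte were called less fully. Urea cycle and amino acid catabolism genes were higher in 3 of 14 cases, among them HGD, an enzyme of tyrosine breakdown, at 51.2 FPKM against 0.0555, 0.191, and 0.235 FPKM, and HAL, which starts the breakdown of histidine, at 7.57 FPKM against 0.132, 0.478, and 0.354 FPKM. No urea cycle enzyme was called. CPS1 was at 1.16 FPKM in Hep3B and 8.79 FPKM in HCT116, ASS1 was at 38.1 FPKM against 39.0, 4.70, and 142 FPKM, and OTC and ARG1 were under 0.2 FPKM in all 4 inputs.

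Of 15 genes of glucose and lipid metabolism, 6 were higher. ALDH1A1, an aldehyde dehydrogenase that makes retinoic acid, was at 362 FPKM against 0.0196, 0.155, and 0 FPKM. SLC2A2, the glucose transporter of hepatocytes, was at 11.7 FPKM and FABP1, a fatty acid binding protein, at 66.2 FPKM, both at 0 in the other inputs and at least 192-fold and 419-fold above the floor. The enzymes of glucose production PCK1 and G6PC were at 0 in Hep3B, as was CYP7A1, the first enzyme of bile acid synthesis, while CYP27A1 of the alternative route was at 16.6 FPKM against 0.354, 0.624, and 0.105 FPKM. Drug metabolism enzymes were higher in 4 of 11 cases. CYP3A7, the fetal form of the family, was at 5.64 FPKM against 0.195, 0, and 0.0713 FPKM, and the adult form CYP3A4 was at 0.0328 FPKM in Hep3B. CYP1A2, CYP2C8, and CYP2E1 were at 0.106 FPKM or less in Hep3B. UGT2B4 and UGT2B7, which couple steroids to glucuronic acid, were at 47.8 and 20.7 FPKM with at most 0.150 FPKM elsewhere.

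Transporters and receptors of the hepatocyte were higher in 5 of 12 cases. ASGR1 and ASGR2, the chains of the asialoglycoprotein receptor, were at 47.9 and 155 FPKM, with 0.441 FPKM or less in every other input. FGFR4, the receptor of FGF19, was at 138 FPKM against 23.3, 19.02, and 3.14 FPKM, and KLB, its coreceptor, at 25.3 FPKM against 0.190, 0.725, and 0.257 FPKM. SLC10A1, the bile salt uptake carrier, was at 0.271 FPKM, and ABCB11, the bile salt export pump, was at 0 in all 4 inputs.

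Of the 15 genes with the largest distances above the nearest line, 13 were members of these lists, and the others were TM4SF4 and NTS. TM4SF4, which encodes a membrane protein with 4 transmembrane spans, was at 530 FPKM in Hep3B against 0.153, 0, and 0 FPKM. NTS, the gene of the peptide neurotensin, was at 416 FPKM against 0.0673, 0, and 0 FPKM. The 5 called genes most like ALB over the 8 libraries, by Pearson's r of log2(FPKM + 1), were TF, ORM1, FGA, APOC3, and APOA2, with r between 0.997 and 0.998. These correlations rest on 2 liver cancer libraries that stand apart from 6 others, and describe that contrast only.

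The 15 genes farthest below the nearest line were at 4.23 FPKM or less in Hep3B and at 34.5 FPKM or more in each of the other inputs. LDHB, the heart form of lactate dehydrogenase, was at 0.548 FPKM in Hep3B against 621, 248, and 428 FPKM. SPINT2, an inhibitor of serine proteases at the cell surface, was at 0.187 FPKM against 161, 307, and 422 FPKM, and C19orf33, which shares its merged locus, at 0.207 FPKM against 200, 349, and 435 FPKM. CD9, a tetraspanin, was at 0.0812 FPKM against 105, 188, and 168 FPKM. The Hep3B level of these 4 genes lay under 1 FPKM, where every other line exceeded 100 FPKM. GSTP1, the glutathione transferase whose promoter is shown above, was at 0.284 FPKM against 794, 63.8, and 1010.4 FPKM, NQO1, a quinone reductase, at 4.23 FPKM against 272, 466, and 431 FPKM, and MT1E, a metal-binding metallothionein, at 0.974 FPKM against 618, 220, and 986 FPKM. SFN, the epithelial 14-3-3 sigma protein, was at 1.06 FPKM against 111, 146, and 166 FPKM. PFKP, the platelet form of phosphofructokinase, was at 0.175 FPKM against 122, 70.4, and 48.4 FPKM. The remaining genes of the 15 lowest were OCIAD2, PLP2, GAL, SLC44A2, HIST1H2BL, and FXYD5, with Hep3B values from 0 to 0.559 FPKM and other values from 34.5 to 225 FPKM.

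**Figure D3:**
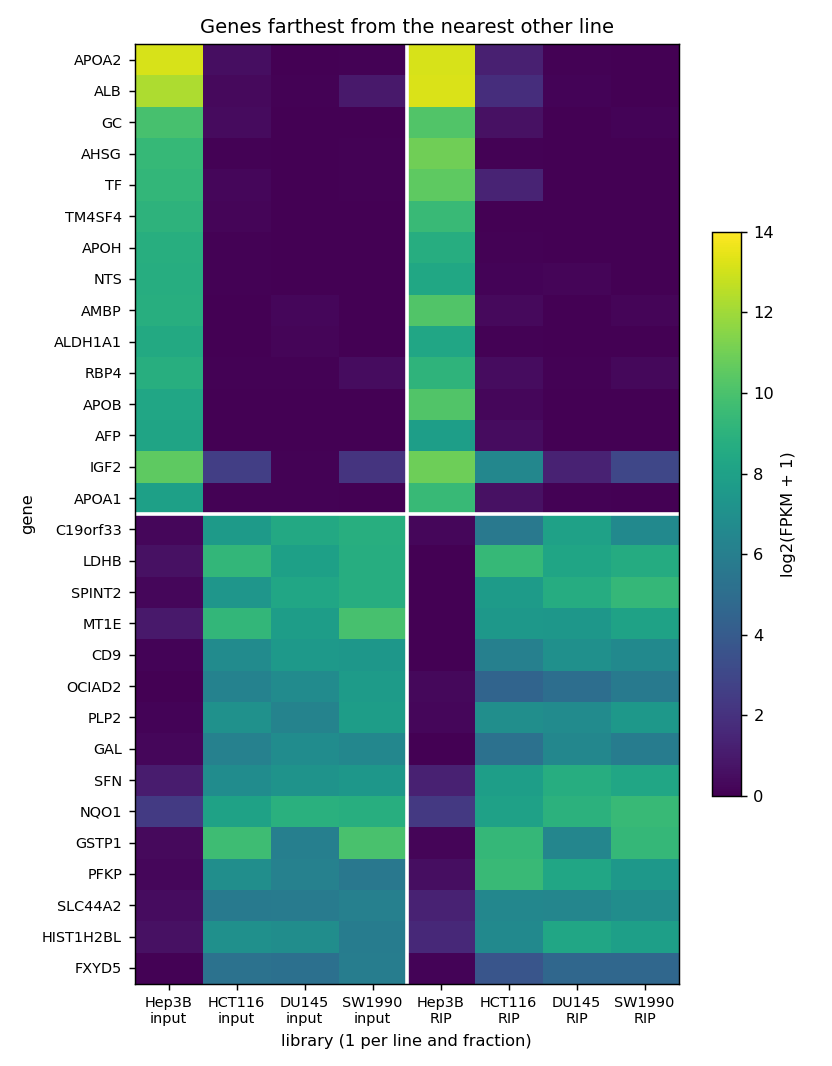
log2(FPKM + 1), as colour, of the 15 genes farthest above and the 15 farthest below the nearest other line in the Hep3B input (rows), in the 4 input and 4 RIP libraries (columns). The upper block is bright in both Hep3B columns, with APOA2 and ALB highest, and at 6.81 FPKM or less in the other 6 apart from IGF2 at 88.5 FPKM in the HCT116 RIP library, while the lower block is at 4.23 FPKM or less in both Hep3B columns and at 11.7 FPKM or more in the other 6.

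Lists of other cell types were mixed. Their counts are over all members found, with no minimum on FPKM. Beside them, 1.21% of all 57756 listed genes were called higher and 0.478% lower, and 37389 of those were under 1 FPKM in every input. The pancreatic duct and squamous list had 0 of 18 members higher and 3 lower (SFN, CLDN4, and TSPAN1). Its summed level was 162 FPKM in Hep3B against 809, 649, and 532 FPKM. Of 11 prostate genes none was called. Of 16 intestinal genes 2 were higher. VIL1, which bundles actin in microvilli, was at 151 FPKM against 0, 0.00858, and 4.72 FPKM. LGR5, a Wnt-amplifying receptor, was at 18.4 FPKM against 0, 0, and 3.36 FPKM. This list summed to 175 FPKM against 10.9, 2.22, and 401 FPKM. Of 9 bile duct genes found, PROM1 was higher, at 130 FPKM against 7.41, 0, and 12.5 FPKM. KRT19, at 141 FPKM, lay within the range of the others. Of 21 blood, endothelial, and stromal genes found, LUM, the matrix protein lumican, was higher. It was at 21.9 FPKM and at 0 in the other inputs (at least 310-fold above the floor). This list summed to 30.8 FPKM against 18.98, 19.4, and 20.2 FPKM. The leukocyte gene PTPRC was at 0 in Hep3B and COL1A1 of fibroblasts at 0.610 FPKM.

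Among 18 epithelial adhesion genes, CLDN1 was higher, at 479 FPKM against 0.1001, 29.2, and 1.72 FPKM, and CDH3, CLDN3, CLDN7, and PKP3 were lower. CLDN7, another tight junction claudin, was at 0.0450 FPKM against 86.1, 6.08, and 80.1 FPKM. CDH1, the epithelial cadherin, was at 40.8 FPKM against 8.40, 32.7, and 26.2 FPKM and was not called. Of 25 mesenchymal and motility genes, with no minimum on FPKM, 3 were higher and 3 lower, beside 1.21% and 0.478% of all listed genes. CDH2, the neural cadherin, which hepatocytes also carry, was at 24.1 FPKM and at 0 elsewhere, at least 1202-fold above the floor, and FN1, the plasma and matrix protein fibronectin, was at 135 FPKM against 2.32, 3.14, and 2.54 FPKM. CD44, the hyaluronan receptor, was at 0.300 FPKM against 196, 62.1, and 34.7 FPKM, and ANXA1 at 0.537 FPKM against 105, 131, and 39.6 FPKM. VIM, of mesenchymal intermediate filaments, was at 198 FPKM in Hep3B, between 0.147 FPKM in SW1990 and 336 FPKM in DU145. None of the 16 housekeeping genes was called.

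The RIP libraries were read by the same rule as a second look at these genes. They hold the RNA pulled down with the RPS6 antibody and are not replicates of the inputs, and the labels do not say whether both libraries of a line came from 1 culture. Of the 20367 genes, 756 (3.71%) were called higher and 381 (1.87%) lower in the Hep3B RIP library. Of the 697 genes higher in the input, 478 were also higher in the RIP library (68.6% of the input calls and 63.2% of the RIP calls), and of the 276 lower genes, 196 were lower in both (71.0% and 51.4%). For protein-coding genes these counts were 425 of 483 (88.0%) and 178 of 225 (79.1%). The plot of input against RIP differences shows the calls without a RIP difference as a row at 0, made up almost wholly of other genes. Of 33 snoRNAs and scaRNAs higher in the input 4 were higher in the RIP library, of 44 other small noncoding RNAs 3, and of 13 microRNA precursors 2. Depth moved with this, since 23 of the 33, 31 of the 44, and 10 of the 13 had under 20 estimated counts in every input, against 0 of the 483 protein-coding genes. The fraction also differed, since the 5 short RNAs named above took a smaller share of each RIP library than of its input. Their RIP shares were 0.126% in Hep3B and 0.0514%, 0.0781%, and 0.0521% in the others. Neither the part of depth nor that of the fraction in these counts was tested.

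**Figure D4:**
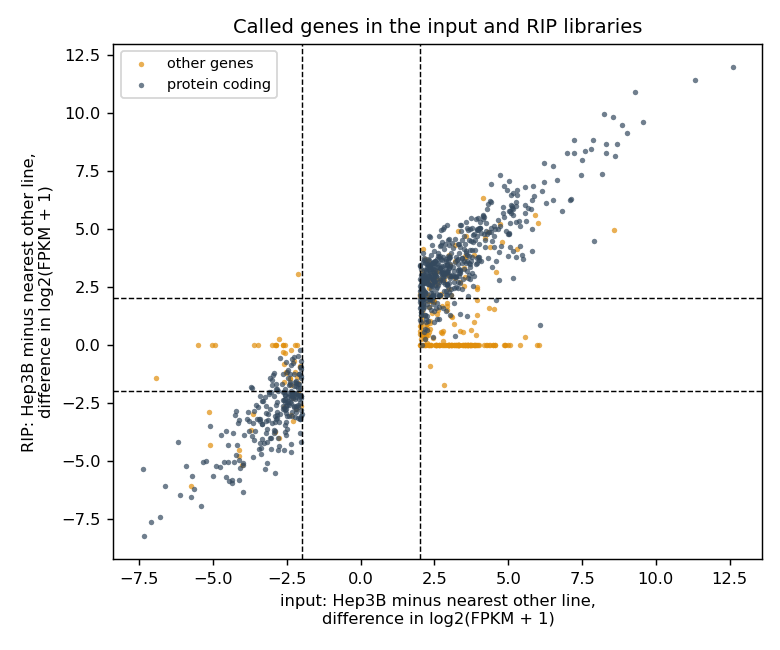
Difference in log2(FPKM + 1) between Hep3B and the nearest other line in the input (horizontal axis) and in the RIP libraries (vertical axis), 1 point per gene called in the input, with dashed lines at the 4-fold rule. Of the protein-coding genes, 425 of 483 called higher lie in the upper right and 178 of 225 called lower in the lower left, and many other genes lie at 0 on the vertical axis.

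In the liver lists, 89 of the 94 genes higher in the input were higher in the RIP library too, beside 425 of 483 (88.0%) of all protein-coding genes called higher. ALB was at 9582 FPKM in the Hep3B RIP library against 2.54, 0.0859, and 0 FPKM, and APOA2 at 9132 FPKM against 1.31, 0.0686, and 0 FPKM. APOB was at 1180.2 FPKM against 0.199, 0, and 0 FPKM, and AFP at 231 FPKM against 0.404, 0, and 0 FPKM. The 5 that were not called again were C5, SAA4, H19, HULC, and FABP1. FABP1 went from 66.2 FPKM in the input to 0.811 FPKM in the RIP library, SAA4 from 8.11 to 0.298 FPKM, and the liver long noncoding RNA HULC from 11.4 to 0.473 FPKM, while all 3 were at 0 in the other RIP libraries. H19 stayed at 1078 FPKM in the Hep3B RIP library, beside 918 FPKM in that of SW1990. C5 stayed at 24.0 FPKM, with 9.31 FPKM in SW1990. Conversely, 10 list members were called only in the RIP library, among them CFB at 38.2 FPKM against 0.633, 3.04, and 0.565 FPKM, and SERPING1 at 21.5 FPKM against 0.886, 2.48, and 0.0582 FPKM. The sums of the plasma carrier list were 18295 FPKM in the Hep3B RIP library and 14.9, 121, and 99.3 FPKM in the others.

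Some of the genes called in Hep3B lay near each other. Of 649 positions with a gene called higher, 130 (20.03%) had another within 100 kb, beside 11.3% of the 12715 other positions that held a member. Of the positions with a gene called lower, 39 (15.2%) had another within 100 kb, beside 5.58% of the others. On hg19, as the files give it, FGB, FGA, and FGG with DCHS2 formed a run at chr4:155153398-155534119, where 4 of 5 member positions were called higher. APOE, APOC1, and APOC2 lay at chr19:45409010-45452822, with 3 of 4 positions called, SERPINA10, SERPINA6, and SERPINA1 at chr14:94749649-94857030, with 3 of 3, and F7 and F10 at chr13:113548691-113803843. These runs are examples, and other runs called higher held genes of other kinds. Among them were ZNF528, ZNF610, and ZNF880 at chr19:52772823-52921665, with 3 of 4 positions called. A run with histone genes lay at chr6:26017259-26046097, with 4 of 9. Among the lower genes, 4 metallothionein genes lay at chr16:56642110-56721964, with 4 of 9 positions called. CLDN3 and CLDN4 lay at chr7:73183327-73256865, with 3 of 3. Genes in such runs arose by duplication in several cases, and reads of near-identical copies may have been split between them.

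The motif letters shown above were counted in the 250 bases before the start for all genes with a promoter in the RefSeq table. Of the 94 liver-list genes called higher, 63 had one, and GTTAAT was in 15 of them (23.8%), TTNNGNAA in 30 (47.6%), CAAAGT in 11 (17.5%), CAAAGTCCA in 1 (1.59%), and TATAAA in 8 (12.7%). Over all 27305 promoters of the table the shares were 6.22%, 33.6%, 10.4%, 0.293%, and 11.1%. Of the 483 protein-coding genes called higher, 345 had a promoter, and GTTAAT was in 10.4% and TTNNGNAA in 30.1%, against 3.34% and 22.8% of the promoters of 10229 protein-coding genes with at least 1 FPKM. Of the protein-coding genes called lower, 153 had a promoter, with GTTAAT in 3 (1.96%), TTNNGNAA in 30 (19.6%), and CAAAGTCCA in 0. Base composition also differed between these sets. G and C made up 51.6% of the bases of the liver-list promoters, 56.9% for all 27305 promoters, 59.6% for all protein-coding genes called higher, 64.2% for those with at least 1 FPKM, and 67.2% for those called lower, and its part in the motif shares was not tested. All 27305 promoters also include genes beyond the 10229 protein-coding genes with at least 1 FPKM, so they are no matched set for base composition.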

How the data were processed

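The authors aligned reads to hg19 with TopHat (the submitters' notes list CASAVA 1.8 and TopHat2 2.0.9). The counting tool, annotation, and filters are not given in the sources used here, nor is the use of strand in counting. The authors deposited FPKM per gene and library, normalized for length and depth. The authors also deposited an estimated count per gene, scaled per library and split among overlapping genes. Each table also holds the authors' fold, p-value, and q-value columns for RIP against input, which were not used. Here, log2(FPKM + 1) was compared by the 4-fold rule, with 15 genes named at each end by distance to the nearest line and at least 20 estimated counts, beside members of 19 lists and the 5 genes most like ALB. Members, lists, and motifs were chosen with earlier results of these data known. Some list members are not reported here. Of 20367 genes, 15939 matched RefSeq symbols or synonyms, used for names and classes. SELENOP is listed as SEPP1, ANGPTL8, PECAM1, and CD24 were not matched, and of 2 CFB entries the one with the highest total was kept. As an alternative, edgeR 4.0.16 (R 4.3.3) was run on rounded estimated counts with a mean of at least 10, after a test on simulated data. The simulated counts had less spread between libraries than edgeR fitted to these inputs, so that test does not show what edgeR could find here. Other steps used Python 3.11.15, pandas 2.3.3, NumPy 2.4.6, statsmodels 0.14.6, and matplotlib 3.10.9.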

Additional observations from a re-analysis of the deposited data

How the results depend on the processing

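The counts of the 4-fold rule moved with its settings, and the liver-list count moved less than the others. At 2-fold, 1947 genes were higher and 1205 lower, with 1171 and 720 also called in the RIP library, and at 8-fold the 4 counts were 332, 105, 215, and 78. With a pseudocount of 0.1 they were 1319, 857, 822, and 554. With the mean of the other lines as the reference they were 1144, 793, 774, and 513, with HCT116 alone, from the same deposited table, 1561, 1174, 1026, and 755, and with DU145 alone, an alternative added after the values were seen, 1158, 1363, 817, and 818. With FPKM scaled to a sum of 1000000, 414 genes were higher, 590 lower, and 310 higher in both fractions. With each other line left out in turn, higher calls ranged from 815 to 1009, lower calls from 426 to 491, liver-list calls from 98 to 99, calls higher in both fractions from 567 to 661, and lower in both from 270 to 331. The liver-list count of 94 ranged from 78 at 8-fold to 119 at 2-fold over these settings. The edgeR quasi-likelihood test, in which the lone Hep3B input was assumed to vary like the other lines, called 0 genes higher, 0 lower, and 0 liver-list genes after Benjamini-Hochberg adjustment. At an unadjusted p under 0.05 it gave 1210 genes higher and 936 lower of 20236. Filters, size factors, and restriction to protein-coding genes kept every count within 1.5 times. None of the 34 named differences changed sign. No paired analysis was possible because each line had 1 input library. Levels under 3 counts in a library cannot be told from 0 at this depth.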

Other observations

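Some gene families, chosen after their values were seen, held several genes called lower in the Hep3B input. Of 11 listed metallothionein genes, which bind zinc and copper, 4 were lower and 0 higher, beside 0.478% and 1.21% of all 57756 listed genes. Of these genes, 7 reached 1 FPKM in some input. Apart from MT2A and MT1X, those 7 were under 1 FPKM in Hep3B and were kept only through other lines. Of the 4 lower genes, 3 were lower in the RIP library too, MT1X being the exception. MT2A was at 5.23 FPKM against 605, 145, and 615 FPKM in HCT116, DU145, and SW1990, and MT1X at 6.61 FPKM against 90.0, 63.8, and 227 FPKM. Of 10 listed HOXB genes, which encode homeodomain factors of body axis patterning, 6 were lower. The 9 that reached 1 FPKM in some input were at 0.286 FPKM or less in Hep3B, so they were kept only through the other lines. Of the 6 lower genes, HOXB6, HOXB7, and HOXB9 were also lower in the RIP library and HOXB3, HOXB5, and HOXB8 were not. HOXB7 was at 0.286 FPKM against 26.6, 23.6, and 89.6 FPKM, and HOXB9 at 0.0180 FPKM against 10.0, 9.88, and 109 FPKM. HOXB6, HOXB8, HOXB5, and HOXB3 were at 0 in the Hep3B input. Of 11 HOXA genes none was called, with 1 lower when FPKM was scaled to a sum of 1000000. The counts for metallothionein and HOXB genes were the same under all 3 scales.

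Histone cluster 1 genes were called in both directions, with 6 of 55 listed genes higher and 3 lower, beside 1.21% and 0.478% of all 57756 listed genes. In the RIP library 4 of the 6 and all 3 of the lower genes were called again, while HIST1H2AE and HIST1H4I were not. HIST1H3C was at 530 FPKM in Hep3B against 1.95, 0.0700, and 0.427 FPKM, and HIST1H2AJ at 13.9 FPKM against 902, 208, and 252 FPKM. With FPKM scaled to a sum of 1000000, 4 were higher and 5 lower. These genes are near copies of each other, and how reads were split between them is not given in the sources used here.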
